A study of Homo sapiens with 4 samples.

Results

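The core spliceosome genes examined here encode 59 proteins of the splicing machinery outside the U2 particle. They comprise U1 proteins, the Sm ring, the U4/U6.U5 tri-snRNP, factors of B complex activation, the PRPF19 complex, catalytic step factors, RES, exon junction and SR-related matrix proteins, and 3' splice site factors. Skipped exons were assigned to them by position: an event belonged to a gene when its middle exon shared a boundary with an exon of that gene in GENCODE release 29. This gave 105 events in 40 of the 59 genes, out of 44910 events listed in the whole series, and all 105 were listed for both groups. They correspond to 99 skipped exons, of which 81 exons in 36 genes had enough reads to be tested, out of 18682 tested exons in all.

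The exons were measured by RNA sequencing of MDA-LM2, an established human line selected from MDA-MB-231 breast cancer cells for metastasis to the lung. Per the labels, 2 libraries came from cells transfected with small interfering RNAs against SNRPB2 (siSNRPB2) and 2 from control-transfected cells (siCtrl), all harvested 48 h after transfection. The knockdown used 2 independent siRNAs and was above 95% by quantitative PCR; the labels do not say which siRNA a library received or whether replicates were separate cultures. Each event has 1 inclusion level in each group, and the differences below therefore have no replicate check, SD or n. SNRPB2, the targeted gene, encodes the U2 particle's protein U2B''. No event belonged to it and its level is not analysed here.

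The spliceosome is built anew on each intron. The U1 particle marks the 5' splice site and SF1 the branch point, after which U2 binds the branch point. The tri-snRNP then joins, DDX23 displaces U1, the helicase SNRNP200 unwinds U4 from U6, and the PRPF19 complex stabilises the active site around PRPF8. DHX16, DHX38 and DHX8 are the helicases that drive the steps up to release of the joined exons, and SLU7 and PRPF18 act at the second catalytic step. Several genes of splicing proteins carry so-called poison exons, whose inclusion brings in a premature stop codon and exposes the RNA to nonsense-mediated decay (NMD).

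The inclusion level ψ is the estimated fraction of transcripts that keep the exon, given by the program MISO with an interval. Reads were of 4 classes: compatible only with inclusion, only with exclusion, with both isoforms (for example within a flanking exon), or with neither. An exon was tested with at least 20 reads of the first 2 classes together in each file, and it was called when ψ differed by at least 0.1 with a Bayes factor of at least 10, the authors' ratio of evidence for a difference over none.

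The exons whose sequence shows what is gained or lost are these. The first 4 are whole coding exons whose ψ or reads differed between the files, with the last 3 bases, which form the exonic side of the 5' splice site, in capitals. They are given 5' to 3' on the transcribed strand from GENCODE release 29 transcripts (hg38).
USP39, chr2:85621485-85621579, plus strand: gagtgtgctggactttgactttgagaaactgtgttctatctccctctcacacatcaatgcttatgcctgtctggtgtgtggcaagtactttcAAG
BCAS2, chr1:114576688-114576758, minus strand: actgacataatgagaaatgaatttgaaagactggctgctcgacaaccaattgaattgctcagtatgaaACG
ACIN1, chr14:23089982-23090101, minus strand: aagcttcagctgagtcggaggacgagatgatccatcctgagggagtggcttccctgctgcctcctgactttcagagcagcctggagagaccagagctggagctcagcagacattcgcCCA
SNRPG, chr2:70287265-70287371, minus strand: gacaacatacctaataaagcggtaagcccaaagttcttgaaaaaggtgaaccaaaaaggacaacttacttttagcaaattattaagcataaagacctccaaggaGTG
The USP39 exon ends in AG and the other listed exons do not. Over the 80 tested exons with an annotated sequence, 49 (61.3%) ended in AG, against 56.1% of 18033 tested exons of all genes.

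The next set are poison exons, shown from their first base to the first stop codon in the annotated reading frame, with the stop codon in capitals. They show how soon translation would end once the exon is kept.
SNRPB, chr20:2467192-2467315, minus strand: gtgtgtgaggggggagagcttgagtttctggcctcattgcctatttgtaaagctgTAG
PRPF39, chr14:45096596-45096758, plus strand: acgctgtcattgatgctcTAA
SART3, chr12:108542770-108542851, minus strand: gttaagaaaTAG
The last set are called exons that hold an annotated start codon, shown from that codon, in capitals, to the end of the exon. Their upstream part is untranslated and is not shown.
PRPF18, chr10:13591768-13591888, plus strand: ATGatcagaacgttccccggg
ACIN1, chr14:23071125-23071186, minus strand: ATGttatcagaaagcaaagaagg

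Of the 81 tested exons, 7 were called, 2 lower and 5 higher in siSNRPB2. Among all 18682 tested exons 14.7% were called, 7.61% lower and 7.13% higher. The lower exons belonged to BCAS2 and DHX16, and the higher ones to USP39, PRPF18, SNRPD3 and ACIN1, the last with a pair of exons. The other 74 exons were not called: 63 of the 81 (77.8%) differed in ψ by under 0.05, against 60.2% of all tested exons, and the median difference was 0.00 in both sets. A further 3 exons, in EFTUD2, SRRM1 and SNRNP27, differed by at least 0.1 without reaching the Bayes factor; 2 of them were singled out after their values were seen, SRRM1 and SNRNP27.

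**Figure D1:**
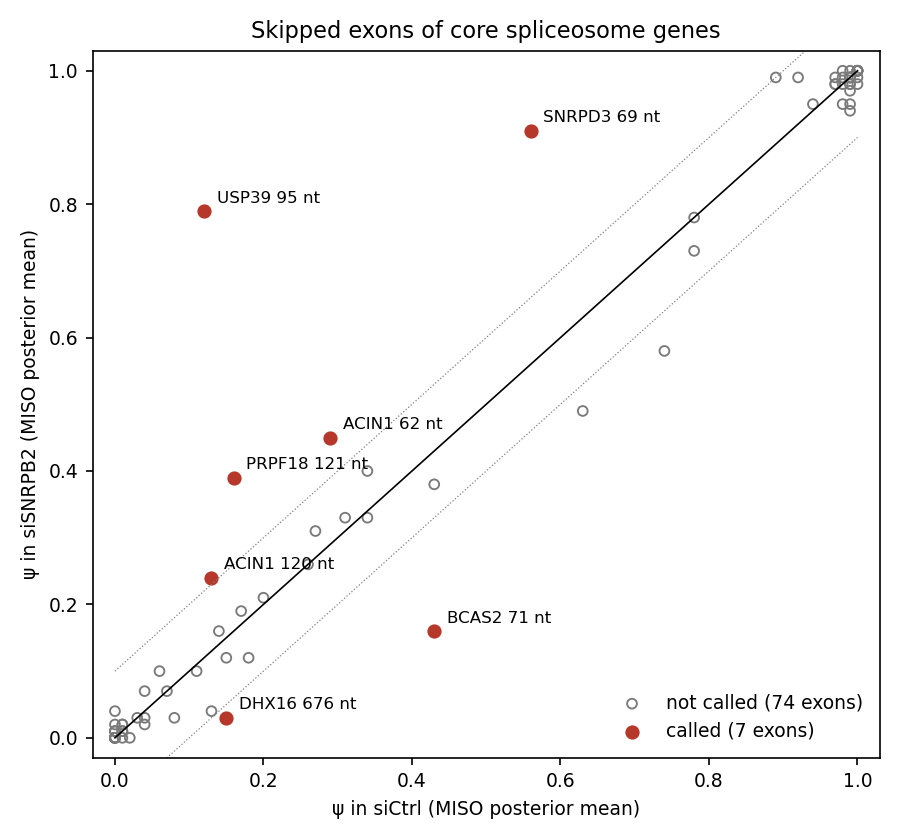
Each point is 1 of the 81 tested skipped exons of core spliceosome genes, with ψ in siCtrl on the horizontal axis and ψ in siSNRPB2 on the vertical axis, both as fractions from 0 to 1. Filled points are the 7 called exons with gene and exon length; the solid line marks equal ψ and the dotted lines a difference of 0.1, and most open points lie between the dotted lines.

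A 2-sided Fisher's exact test of the informative reads, inclusion-only against exclusion-only, with Benjamini-Hochberg adjustment over all tested exons, gave another view that does not use ψ. It compares the 2 files, not the conditions. With an adjusted p under 0.05 and an inclusion share different by at least 0.1, 9 member exons passed, against 10.6% of all tested exons. These were 5 of the called exons, in DHX16, PRPF18, SNRPD3 and ACIN1 (a pair), and 4 others, in PRPF39 (a pair), SF1 and PRPF4B. When all reads were divided by 9.935, the factor by which reads of nearly constitutive exons varied between the files beyond sampling, 0 passed. At an unadjusted p under 0.05, 3 of the 81 exons (3.7%) then passed, against 238 of all 18682 (1.27%), and 3 of all 18682 (0.0161%) had an adjusted p under 0.05.

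In the tri-snRNP group (23 tested exons in 8 genes), the exon with the largest difference was that of USP39, an inactive member of the ubiquitin protease family that joins the tri-snRNP. The 95 nt exon rose from a ψ of 0.12 (authors' interval 0.08 to 0.16) in siCtrl to 0.79 (0.65 to 0.93) in siSNRPB2, and the authors' deposited table gives a Bayes factor of 1e+12. Inclusion-only reads numbered 39 in siCtrl and 145 in siSNRPB2, and reads compatible with both isoforms numbered 629 and 348. Neither file held an exclusion-only read, so the share of inclusion among informative reads was 100% in both, while inclusion-only reads made up 5.84% of the compatible reads in siCtrl and 29.4% in siSNRPB2. The flanking exon of this event begins at position 85623626, whereas all 6 coding transcripts that hold the exon continue at 85623646, 20 nt further on; 1 NMD transcript and 3 non-coding transcripts use the event's own site. A read across the junction of those coding transcripts is compatible with neither isoform as the event defines them. The class of reads with neither isoform held 1600 reads in siCtrl and 1473 in siSNRPB2, and the part of that junction in it was not tested. The other 5 tested exons of USP39 had ψ differences of at most 0.02 in the authors' deposited table. On the 120 nt non-coding exon just upstream, 14 inclusion-only and 12 exclusion-only reads in siCtrl stood against 43 and 93 in siSNRPB2. Its inclusion share was 53.85% and 31.62%, with a Fisher's exact adjusted p of 0.191. Its skipping junction is the one that enters the called exon in that exon's event. The part of these reads in the called difference was not tested. The 136 nt coding exon had ψ values of 0.17 and 0.19 on 309 and 289 inclusion-only reads. The deepest, of 87 nt, had a ψ of 1.00 in both files on 3383 and 2969 inclusion-only reads.

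PRPF8, the protein at the heart of the catalytic centre, had 3 tested exons that differed by at most 0.02 in the authors' deposited table. Its 180 nt exon held 9883 inclusion-only and 0 exclusion-only reads in siCtrl and 8789 and 4 in siSNRPB2, the deepest exon of the group, with a ψ of 1.00 in both. The helicase gene SNRNP200 had 1 tested exon, of 262 nt and known only from an NMD transcript, with a ψ of 0.00 in both files on 0 and 1 inclusion-only against 41 and 45 exclusion-only reads. EFTUD2, the GTPase of the U5 particle, had 5 tested exons. Its coding exon of 95 nt had a ψ of 0.74 (0.64 to 0.86) in siCtrl and 0.58 (0.49 to 0.67) in siSNRPB2, and was not called (the authors' deposited table has a Bayes factor of 1.84); it had 260 and 172 inclusion-only reads and no exclusion-only read. Another exon of EFTUD2, of 281 nt and non-coding, had ψ values of 0.27 and 0.31 on 465 and 362 inclusion-only reads. A partly coding exon of 109 nt lies inside it, between the same flanking exons and with the same upstream junction. The 109 nt exon had a ψ of 1.00 in both files on 1202 and 1169 inclusion-only reads. Reads across the shared junction do not tell these exons apart. The ψ of the 281 nt exon is thus not the share of EFTUD2 transcripts that hold it.

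DDX23, the helicase that displaces U1, has overlapping middle exons that share reads. The 377 nt block, which spans a pair of coding exons and the intron between them, had a ψ of 0.34 (0.33 to 0.36) in siCtrl and 0.40 (0.39 to 0.42) in siSNRPB2 on 3605 and 3478 inclusion-only reads. It passed the Bayes factor but not the difference of 0.1, and neither file held an exclusion-only read. Both outer junctions of the block are held by 3 annotated transcripts, but only 1 transcript, non-coding, holds the block as an exon. Reads across those junctions do not tell the block from the spliced exons, so its ψ is not the share of transcripts that keep the intron in the block. The 113 nt coding exon inside it had ψ values of 0.20 and 0.21, in an event whose upstream flank lies beyond the 134 nt exon. No annotated DDX23 transcript holds both junctions of that event, and 3876 and 3742 reads were compatible with neither isoform. Its ψ is thus not the share of transcripts that keep the exon next to the 134 nt exon. The 134 nt coding exon had ψ values of 0.92 and 0.99. SART3, which recycles U4/U6 after splicing, had 0 inclusion-only against 158 exclusion-only reads in siCtrl on its 82 nt poison exon and 19 against 207 in siSNRPB2. The inclusion share of these reads was 0% (exact 95% binomial interval 0 to 2.31%) and 8.41% (5.14 to 12.8%), with a Fisher's exact adjusted p of 0.000494, and ψ was 0.00 and 0.04, under the difference needed for a call. A coding exon of SART3, of 108 nt, had ψ values of 0.15 and 0.12. SNRNP27, a tri-snRNP protein, had a ψ of 0.89 in siCtrl and 0.99 in siSNRPB2 on its 65 nt exon, where the authors' deposited table has a Bayes factor of 0.46. MXD1, the gene of a transcription factor, also holds a boundary of this exon. PRPF3 had ψ values of 0.01 in both files on its only exon. The cyclophilin gene PPIH had an exon listed but not tested, with 2 and 10 informative reads.

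In the Sm ring group, 9 exons in 6 genes were tested. The Sm proteins form the ring on which the U1, U2, U4 and U5 particles are assembled. SNRPB encodes the SmB proteins and is known for a poison exon; the exon of 124 nt, present in 1 annotated NMD transcript, was the deepest exon of the group. In siCtrl 239 reads were inclusion-only and 7367 exclusion-only, and in siSNRPB2 66 and 8272. The inclusion share was 3.14% (exact 95% interval 2.76 to 3.56%) in siCtrl and 0.792% (0.613 to 1.01%) in siSNRPB2, intervals that do not overlap, and Fisher's exact test gave an adjusted p of 1.73e-25. In the authors' deposited table the ψ difference is -0.02 and the Bayes factor 1e+12, so the exon was not called; with reads divided by the noise factor the exact adjusted p was 0.442. The boundary of this exon is also held by AL049650.1. Compatible reads at SNRPB numbered 10797 and 11788.

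SNRPD3 encodes SmD3. Its own 193 nt coding exon had ψ values of 0.97 and 0.98 on 2747 and 2672 inclusion-only reads. The exon called under its name lies at chr22:24609965-24610033, in a distal stretch where SNRPD3 and GGT1, a gamma-glutamyltransferase gene, share exon boundaries, and no annotated SNRPD3 transcript holds both of its junctions. There ψ was 0.56 (0.39 to 0.74) in siCtrl and 0.91 (0.74 to 1.00) in siSNRPB2, with 24 inclusion-only and 12 exclusion-only reads in siCtrl and 30 and 0 in siSNRPB2; the Bayes factor in the authors' deposited table was 85.3. Fisher's exact test gave an adjusted p of 0.00253 on these few reads. Leaving out every exon whose boundary another gene also holds, an alternative chosen after the data were seen, left 6 called member exons, 2 lower and 4 higher.

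The small Sm protein gene SNRPG had a 107 nt coding exon, printed above, with no inclusion-only read among 375 informative reads in siCtrl and 19 among 398 in siSNRPB2. Its inclusion share was 0% (exact 95% interval 0 to 0.979%) in siCtrl and 4.77% (2.9 to 7.36%) in siSNRPB2, with a Fisher's exact adjusted p of 5.59e-05, while ψ was 0.00 and 0.01. The 23 nt exon of SNRPG, the shortest tested among the members, had a ψ of 0.78 in both files on 510 and 505 inclusion-only reads. SNRPD1 had ψ values of 0.98 and 0.95, and SNRPD2 0.04 and 0.07 on its deeper exon. SNRPE had 0.97 and 0.99.

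In the U1 group, 7 exons in 3 genes were tested and 0 were called. SNRPA, a protein of the U1 particle, had a poison exon of 86 nt with no inclusion-only read in either file, against 489 and 247 exclusion-only reads. SNRPC, another U1 protein, had ψ values of 0.31 and 0.33 on its 43 nt coding exon. Its inclusion-only reads numbered 138 and 132 and its exclusion-only reads 1 and 2. PRPF39, which binds U1, has a pair of overlapping poison exons that end at the same base and share reads. The shorter, of 163 nt, had a ψ of 0.13 (0.09 to 0.18) in siCtrl and 0.04 (0.02 to 0.06) in siSNRPB2, just under the difference needed for a call, on 35 inclusion-only and 31 exclusion-only reads in siCtrl and 13 and 61 in siSNRPB2. Its inclusion share was 53% in siCtrl and 17.6% in siSNRPB2, with a Fisher's exact adjusted p of 0.000192. The longer, of 335 nt, had ψ values of 0.08 and 0.03 and a Fisher's exact adjusted p of 0.000455. A further PRPF39 exon known only from NMD transcripts, of 100 nt, went the other way, with ψ values of 0.06 and 0.10. It had 6 and 8 inclusion-only against 63 and 33 exclusion-only reads, with a Fisher's exact adjusted p of 0.518. The deepest exon of the group, a 166 nt coding exon of PRPF39, had ψ values of 0.99 and 1.00. PRPF40B, also a U1-associated protein, had 4 informative reads in each file and was not tested.

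In the group of B complex factors, 4 exons in 2 genes were tested and 0 were called. On a 162 nt non-coding exon of the kinase gene PRPF4B, 25 inclusion-only stood against 32 exclusion-only reads in siCtrl, and 21 against 0 in siSNRPB2. The inclusion share was 43.9% in siCtrl and 100% in siSNRPB2 with a Fisher's exact adjusted p of 2.35e-05, yet ψ was 0.11 and 0.10; 254 and 297 further reads were compatible with both isoforms. PRPF38B, which acts in B complex maturation, had 54 inclusion-only against 1265 exclusion-only reads in siCtrl and 45 against 1559 in siSNRPB2, with ψ values of 0.04 and 0.03.

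In the PRPF19 group, 13 exons in 6 genes were tested. BCAS2, also known as SPF27, is a core subunit of the complex and the called exon, of 71 nt, is coding in 1 annotated transcript and skipped in 1 other. Its ψ fell from 0.43 (0.36 to 0.51) in siCtrl to 0.16 (0.13 to 0.21) in siSNRPB2, at a Bayes factor (the authors' deposited table) of 1e+12. Inclusion-only reads numbered 144 and 72, exclusion-only reads 0 and 3, and reads compatible with both isoforms 988 and 1294. Among informative reads alone the inclusion share was 100% (exact 95% interval 97.5 to 100%) in siCtrl and 96% (88.8 to 99.2%) in siSNRPB2, with a Fisher's exact adjusted p of 0.178. The called difference in ψ thus goes with inclusion-only reads at 12.7% of compatible reads in siCtrl and 5.26% in siSNRPB2.

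PRPF19, the ubiquitin ligase that gives its complex the name, had ψ values of 0.34 and 0.33 on a 171 nt coding exon with 1248 and 1042 inclusion-only reads. Neither file held an exclusion-only read for this exon, so no junction read showed its skipping. PLRG1, another core subunit, had a 194 nt coding exon with 1025 inclusion-only and 0 exclusion-only reads in siCtrl and 921 and 13 in siSNRPB2, with ψ values of 1.00 and 0.98 where the authors' deposited table has a Bayes factor of 8.16. SYF2 had the deepest exon of the group, with a ψ of 1.00 in both files on 3998 and 3309 inclusion-only reads. ISY1 and BUD31 had 4 and 2 tested exons, none called (2 of those in ISY1 share a boundary with the readthrough gene ISY1-RAB43), and their differences in the authors' deposited table were at most 0.02 in size.

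Among the catalytic step factors, 7 exons in 4 genes were tested. PRPF18, which acts at the second step, had a 121 nt exon that holds the start codon of 2 coding transcripts. Its ψ rose from 0.16 (0.12 to 0.21) in siCtrl to 0.39 (0.32 to 0.47) in siSNRPB2, and the authors' deposited table gives a Bayes factor of 10481903. Reads of both informative classes moved, from 41 inclusion-only and 108 exclusion-only in siCtrl to 72 and 63 in siSNRPB2. The inclusion share was 27.5% (exact 95% interval 20.5 to 35.4%) and 53.3% (44.6 to 62%), with a Fisher's exact adjusted p of 0.000157. A 27 nt coding exon of PRPF18 had no inclusion-only read in either file, against 288 and 217 exclusion-only reads.

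DHX16, the helicase that readies the spliceosome for the first step, had a 676 nt block at chr6:30661756-30662431 that no annotated transcript holds as such. Its ψ fell from 0.15 (0.12 to 0.19) in siCtrl to 0.03 (0.02 to 0.04) in siSNRPB2, and the authors' deposited table has a Bayes factor of 1e+12. The reads reversed their balance, from 89 inclusion-only and 17 exclusion-only in siCtrl to 22 and 68 in siSNRPB2. The inclusion share was 84% (exact 95% interval 75.6 to 90.4%) and 24.4% (16 to 34.6%), with a Fisher's exact adjusted p of 3.3e-15, the smallest p among the called exons. The helicase gene DHX8 had ψ of 0.97 to 1.00 on its 3 tested exons. The deepest, of 558 nt and known only from an NMD transcript, had 832 and 602 inclusion-only reads. A further 6740 and 7026 reads of its event were compatible with neither isoform. Its upstream junction is held by 2 annotated transcripts and its downstream junction by 1. The ψ of the 558 nt exon is thus not the share of all DHX8 transcripts that keep it. The gene-level reads of DHX8 given below come from this event. CWC27, a cyclophilin-like protein, had ψ values of 0.78 (0.64 to 0.89) and 0.73 (0.59 to 0.90). DHX38 had a listed exon with 14 and 7 exclusion-only reads and was not tested.

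ACIN1 encodes acinus, a protein of complexes bound near exon junctions, and had 4 tested exons, a pair of which rose. The 120 nt coding exon had a ψ of 0.13 (0.11 to 0.16) in siCtrl and 0.24 (0.20 to 0.29) in siSNRPB2, with 106 inclusion-only and 90 exclusion-only reads in siCtrl and 112 and 18 in siSNRPB2. Its inclusion share was 54.1% (exact 95% interval 46.8 to 61.2%) and 86.2% (79 to 91.6%), with a Fisher's exact adjusted p of 2.46e-08 and, from the authors' deposited table, a Bayes factor of 715. The 62 nt exon, which holds a start codon, had a ψ of 0.29 (0.24 to 0.35) and 0.45 (0.38 to 0.53), with 102 inclusion-only and 48 exclusion-only reads in siCtrl and 150 and 14 in siSNRPB2. Its share was 68% (59.9 to 75.4%) and 91.5% (86.1 to 95.2%), with a Fisher's exact adjusted p of 3.87e-06 and, from the authors' deposited table, a Bayes factor of 15.0. In both exons siSNRPB2 had fewer exclusion-only and more inclusion-only reads. The remaining ACIN1 exons, known only from NMD transcripts, had a ψ of 0.03 in both files and of 0.01 and 0.00.

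Of the other proteins in this group, PNN (pinin) had a ψ of 0.99 in both files. SRRM1, an SR-related nuclear matrix protein, had a 42 nt coding exon with a ψ of 0.63 (0.55 to 0.72) in siCtrl and 0.49 (0.43 to 0.56) in siSNRPB2, on 127 inclusion-only and 29 exclusion-only reads and on 155 and 64; the Bayes factor, 2.92 in the authors' deposited table, was under the threshold. SRRM2 had a ψ of 0.98 in both files on its 273 nt exon with 7926 and 5846 inclusion-only reads, the deepest exon of the group.

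Among the 3' splice site factors, 8 exons in 3 genes were tested and 0 were called. SF1, which binds the branch point before U2 does, had ψ values of 0.43 (0.40 to 0.47) and 0.38 (0.34 to 0.41) on its 205 nt coding exon, and 0.98 and 0.99 on its deepest exon, of 76 nt. On a 74 nt non-coding exon of SF1, 1 inclusion-only and 253 exclusion-only reads in siCtrl stood against 12 and 39 in siSNRPB2, a share of 0.394% and 23.5% with a Fisher's exact adjusted p of 6.19e-08, but ψ was 0.00 and 0.01. PUF60, which binds the polypyrimidine tract, had a ψ of 0.26 in both files on its 51 nt exon. RBM17 had a ψ of 1.00 in both.

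**Figure D2:**
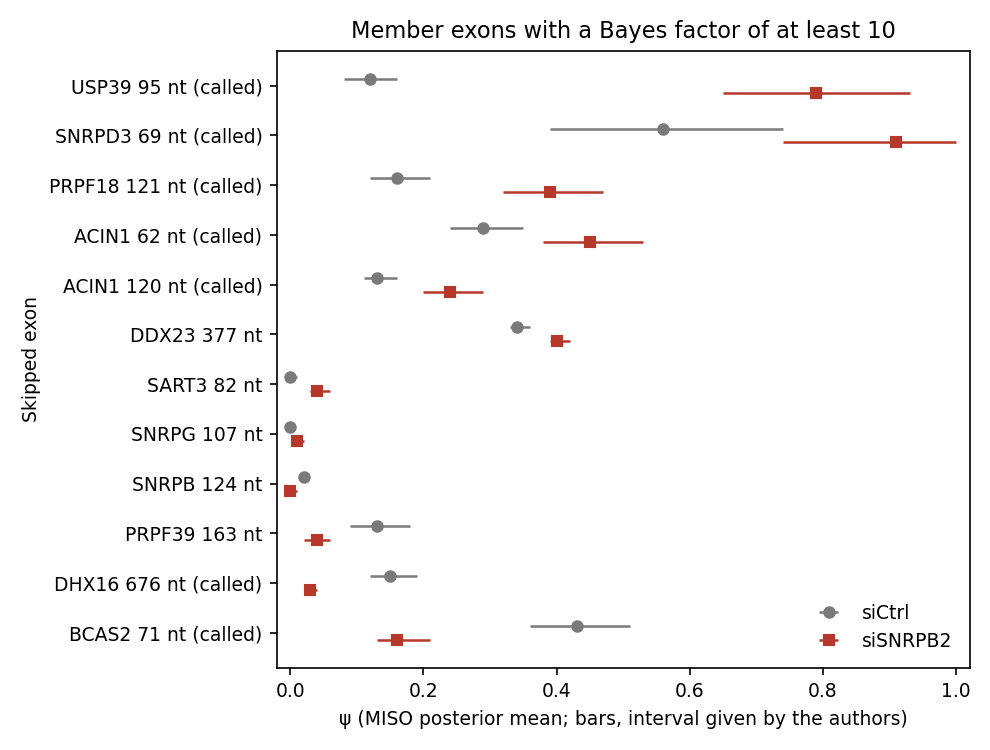
ψ (horizontal axis, fraction) with the authors' interval for the 12 member exons with a Bayes factor of at least 10, in siCtrl (grey circles) and siSNRPB2 (red squares), ordered by the difference. The USP39 exon moved from 0.12 to 0.79 and the BCAS2 exon from 0.43 to 0.16, while SNRPB, SNRPG and SART3 stayed at or under 0.04 in both files.

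The called exons differed in which reads carried the call. In DHX16, PRPF18 and the ACIN1 pair both informative classes were present in both files and the inclusion share moved with ψ. In USP39 and BCAS2 almost all informative reads were inclusion-only, and ψ moved with the ratio of these to the reads shared by both isoforms. Over the 81 tested exons, 30 (37%) lacked exclusion-only reads in both files, against 51.1% of all tested exons, and 11 of these 30 still had a ψ between 0.1 and 0.9 in siCtrl.

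**Figure D3:**
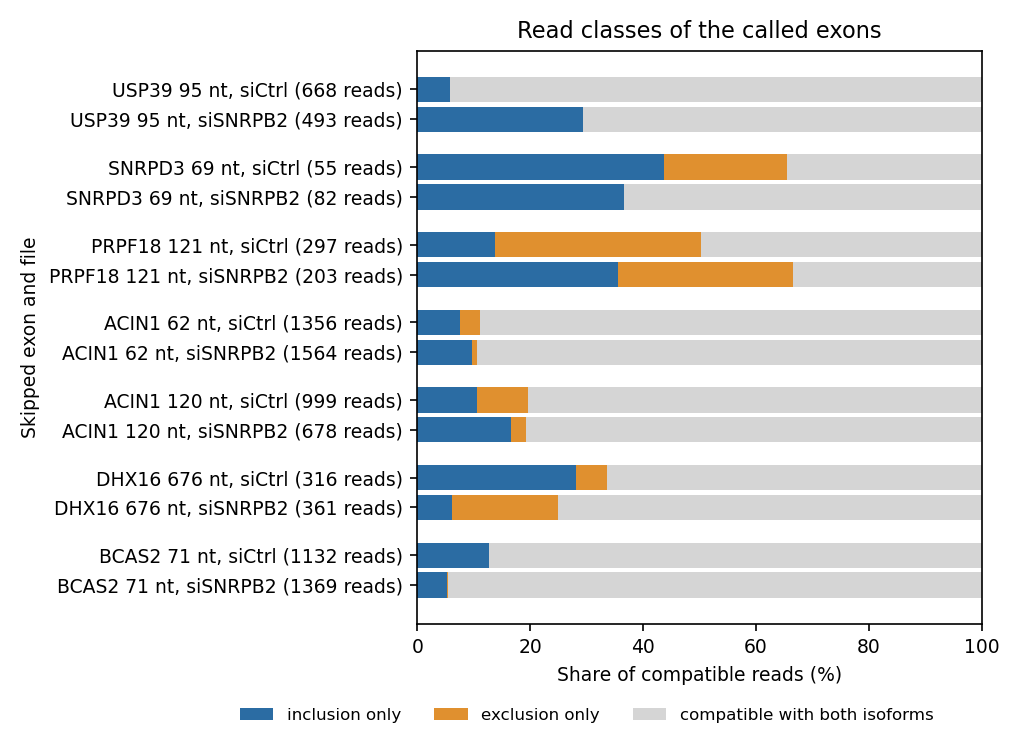
Reads of the 7 called exons as a share of compatible reads (horizontal axis, percent), with 1 bar per exon and file and the number of compatible reads beside each label. Blue marks inclusion-only, orange exclusion-only and grey shared reads; orange is absent in USP39 and barely visible in BCAS2, and shrinks in siSNRPB2 in the ACIN1 pair, while it grows in DHX16.

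By annotation, 40 of the 81 exons were coding, 5 partly coding, 17 present only in NMD transcripts, 18 only non-coding or untranslated, and 1 not annotated as such. The NMD-only exons made up 21% of the members' exons and 12.9% of all tested exons, and 0 of the 17 were called, against 312 of 2414 such exons (12.9%) over all genes. Their median ψ was 0.02 in both files, and 11 of the 17 stayed at or under 0.05, against 1110 of the 2414 over all genes. In 7 the ψ was lower in siSNRPB2, in 3 higher and in 7 equal, without a test. Over all genes 846 of the 2414 were lower, 895 higher and 673 equal. The 7 lower exons include the overlapping PRPF39 pair, which shares reads, so they are not 7 separate observations. Exons with a ψ at or under 0.05 in both files were 29.6% of the members' exons and 16.6% of all. The members' exons lay between shorter introns, with medians of 911 nt upstream and 1113 nt downstream against 2190 and 2038 nt over all, and 33.3% of them had a length divisible by 3, against 41.8%.

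Of the listed exons with too few informative reads to be tested, 4 differed in ψ by at least 0.1; these were picked out after their values were seen. PRPF40B had an 81 nt coding exon with ψ values of 0.24 (0.08 to 0.49) in siCtrl and 0.67 (0.26 to 0.93) in siSNRPB2, on 4 inclusion-only reads in each file, and the intervals overlap. The second-step factor SLU7 had a 90 nt non-coding exon with 44 inclusion-only and 0 exclusion-only reads in siCtrl and 0 and 3 in siSNRPB2, with ψ values of 0.25 and 0.01. In the distal SNRPD3 and GGT1 stretch, a 70 nt exon had 15 inclusion-only reads in siCtrl and 0 in siSNRPB2, with ψ values of 0.88 and 0.09. A 242 nt exon of the same stretch had 0 and 49 inclusion-only reads, with ψ values of 0.02 and 0.62. A pair of untested SRRM1 exons known from NMD transcripts, also singled out after their values were seen, passed the Bayes factor with smaller differences. The 130 nt exon had ψ values of 0.00 and 0.03, on 0 inclusion-only and 11 exclusion-only reads in siCtrl and 20 and 58 in siSNRPB2, beside 896 and 1156 shared reads. The 143 nt exon had ψ values of 0.05 and 0.00, on 14 and 0 inclusion-only reads.

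The files hold no gene counts, so the level of each gene was approximated by the reads compatible with either isoform of its deepest event, scaled to the file total, as a log2 ratio after adding 1 read. Of the 40 genes with an event, 20 lay above 0 and 20 below, with a median log2 ratio of -0.01 against 0.01 over all 10429 genes. The members were read more deeply: 39 of the 40 had at least 100 reads on average, against 8068 of the 10429. The 2-fold shares that follow are not matched for depth. Only 1 of the 40 was past 2-fold, against 12.7% of all genes: PRPF40B, at 78 reads in siCtrl and 15 in siSNRPB2, a log2 ratio of -2.13 (exact 95% interval -3.11 to -1.39 for counting error), beside reads compatible with neither isoform at 240 and 357. This PRPF40B ratio rests on 1 listed exon with 4 informative reads in each file. Whether its reads moved between classes or the gene's level differed was not tested. For the gene ratios in general, fewer cells of a kind and less RNA per cell cannot be told apart in such bulk samples. The ratios otherwise ranged up to 0.46.

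Among genes with at least 100 reads, the lowest ratios were those of SNRPA at -0.27 (1470 and 1081 reads), SNRPD2 at -0.25 (1390 and 1034), PPIH at -0.24 (833 and 622), SART3 at -0.24 (2756 and 2071) and DHX8 at -0.17 (1006 and 794). The highest were those of SNRNP27 at 0.46 (235 and 287 reads, from the event whose exon boundary MXD1 shares), BCAS2 at 0.45 (1132 and 1369), DHX38 at 0.43 (784 and 934), DHX16 at 0.37 (316 and 361) and PRPF3 at 0.30 (1059 and 1157). BCAS2 and DHX16, whose called exons had the lower ψ in siSNRPB2, had more compatible reads in siSNRPB2. Each has 1 listed exon, so these are the reads of the called event itself and not a separate observation from its ψ. USP39 was at -0.03 and PRPF18 at 0.03, on events other than their called ones. Sm ring genes ranged from -0.25 in SNRPD2 to 0.30 in SNRPB, with a median of 0.17 over 6 genes. SRRM2, by far the deepest gene, had 88562 and 78485 reads and a ratio of 0.00.

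**Figure D4:**
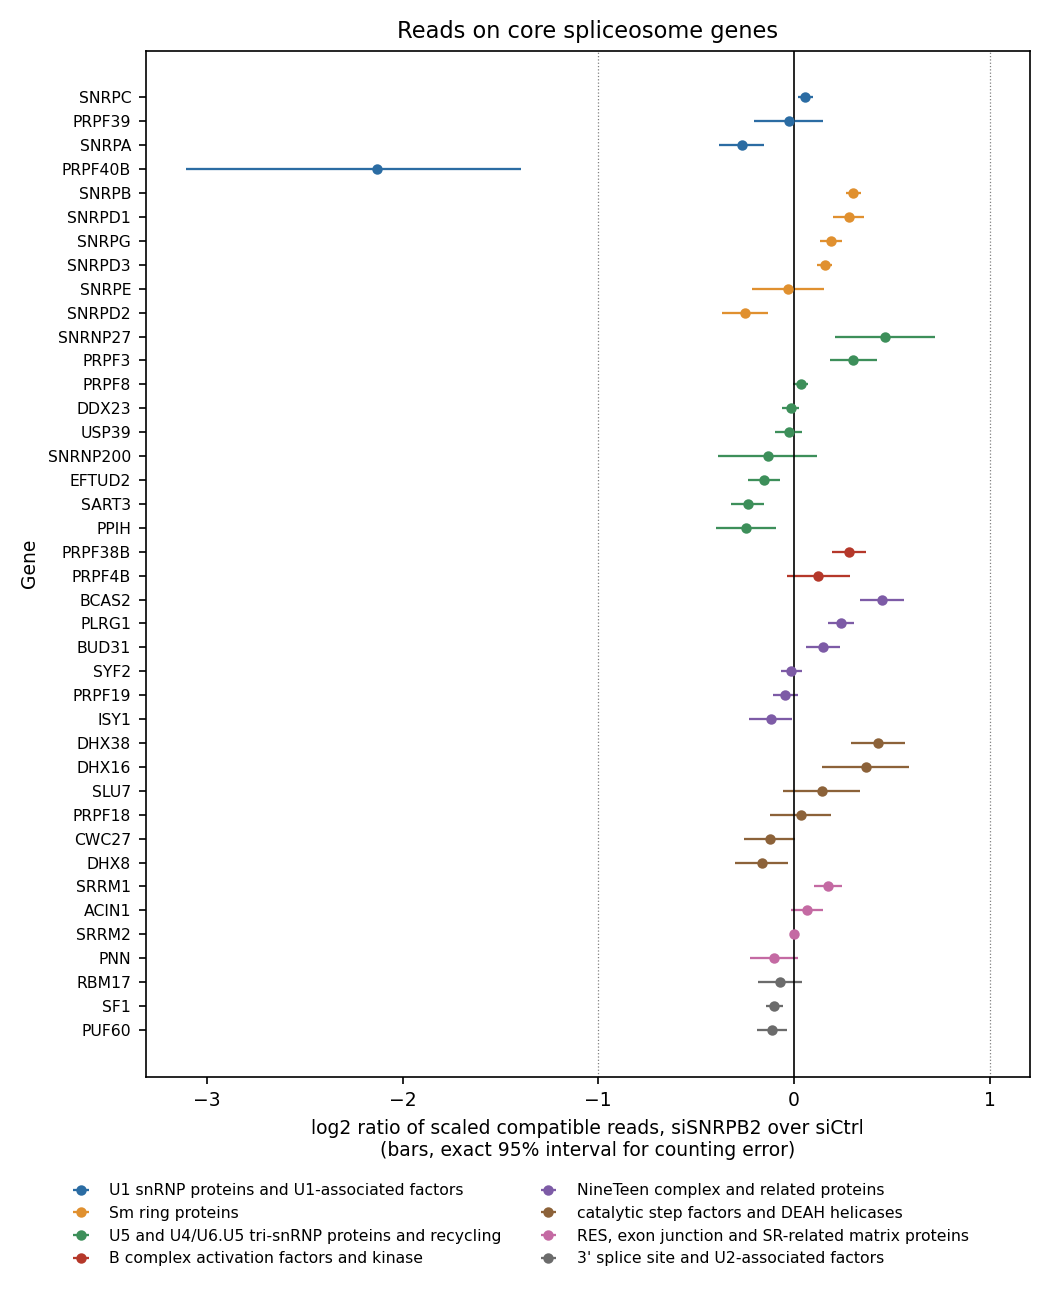
The log2 ratio of scaled compatible reads, siSNRPB2 over siCtrl (horizontal axis), for the 40 core spliceosome genes with an event, coloured by role; bars are exact 95% intervals for counting error only and dotted lines mark 2-fold. PRPF40B stands at -2.13 and all others lie between -0.27 and 0.46.

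Other spliceosome proteins were taken from a list of 58 gene symbols. Some are older names of genes also listed, and CWC26 is another name of the member BUD13, which had no event. The list had 35 genes with an event and 72 tested exons, of which 5 were lower and 7 higher (16.7% called). The higher ones included an exon of the spliceosome disassembly factor TFIP11, whose ψ was 0.68 in siCtrl and 0.96 in siSNRPB2 on 639 and 739 inclusion-only reads, and 3 overlapping or neighbouring exons of SUGP1, a protein of early complexes, with ψ values of 0.16 and 0.48 on the first. The lower ones included an exon of the U2-associated helicase DDX46 with ψ values of 0.75 and 0.58 on 2491 and 2838 inclusion-only reads.

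Over the whole series, compatible reads on 1 event per gene came to 18408117 in siCtrl and 16294275 in siSNRPB2. Of 7 mesenchymal or basal breast cancer markers, 4 were measured (CD44, ITGB1, AXL and FN1), with a summed level of 5087 and 4541 RPM (compatible reads scaled to the file total). Of 6 epithelial or luminal markers, ESRP1 and GATA3 passed the read minimum, and they differed in opposite directions: ESRP1 was at 0.543 RPM in siCtrl and 2.03 in siSNRPB2, and GATA3 at 19.2 and 10.6. Of the 3 blood and endothelial markers, PTPRC was measured, at 2.77 and 0.491 RPM. The part of these levels in the results above was not tested.

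The genes without any event were SNRPF of the Sm ring, PRPF4, PRPF6, PRPF31, SNRNP40 and SART1 of the tri-snRNP, PRPF38A of the B complex, and CDC5L, CWC15, XAB2, CRNKL1, SNW1, AQR and RBM22 of the PRPF19 complex and related proteins. CDC40, CWC22, BUD13, HTATSF1 and CHERP completed these 19 genes, and no statement on them can be made from the skipped-exon events.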

How the data were processed

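Per the labels, 4 stranded pico-input libraries in 2 groups were made from total RNA of MDA-LM2 cells. STAR 2.7 and hg38 are named in the submitters' processing notes. Per the file headers, ψ was estimated with MISO and deposited by the authors as a fraction, with an interval and reads per class; the Bayes factor is the authors' deposited ratio of evidence for a difference over none, at most 1e+12. The MISO version, the event annotation, the interval level and any merging of libraries were not given in the sources used here.

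For each skipped exon the event with the most informative reads (inclusion-only plus exclusion-only) was kept. Median informative reads per member exon were 309 in siCtrl and 247 in siSNRPB2 (158 and 137 over all exons). Fisher's exact test was adjusted by Benjamini-Hochberg over all 18682 tested exons, and checked on simulated data. Reads without molecular identifiers are not independent molecules, so exact binomial (Clopper-Pearson) intervals cover counting error only. The noise factor of 9.935 is the median between-file chi-square (inclusion-only against shared reads), divided by that of chance sampling, over 4582 exons at a ψ of 0.95 or more that lack exclusion-only reads.

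Gene-level values used genes with at least 20 reads on average. Sequences and annotation came from GENCODE release 29 (hg38). Members and lists were chosen with earlier results of these data known. The text names every called exon, every exon past Fisher's exact test, up to 10 exons past the Bayes factor with a smaller difference, the deepest exon of each role group, the 10 deepest exons with ψ between 0.1 and 0.9 in siCtrl, and the 5 highest and lowest genes by reads. Alternatives changed thresholds, the read minimum, the estimator, the gene assignment and the scaling. Python 3.11.15, scipy 1.17.1, pandas 2.3.3, numpy 2.4.6 and matplotlib 3.10.9 were used.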

Additional observations from a re-analysis of the deposited data

Results flagged for a closer look

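Reads compatible with neither isoform of an event were outside the main measurement. Set against compatible reads on the deepest event per gene, they were higher in siSNRPB2 by a median log2 ratio of 0.0708 over the 40 core spliceosome genes (24 of 40 above 0) and of 0.15 over all genes (60.9% above 0). Summed over the members, they were 22.8% of reads in siCtrl and 24.2% in siSNRPB2, against 49.35% and 51.16% over all genes. Past 1.5-fold higher in siSNRPB2 were 5 genes. The matching share over all genes was not counted, so this number is not a result about the members. PRPF40B had a log2 ratio of 2.87, with 240 such reads in siCtrl and 357 in siSNRPB2. The ratio was 0.85 in CWC27 (618 and 909 reads) and 0.76 in RBM17 (971 and 1384 reads). PRPF39 had 0.62 (192 and 257 reads) and SNRPD2 0.61 (1109 and 1261 reads). In the other direction, DHX16 stood at -1.11 and BCAS2 at -0.77. Both values come from the event of the gene's called exon of lower ψ, so they and ψ rest partly on the same reads. No replicate check is possible for these values.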

How the results depend on the processing

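No paired analysis was possible because the files hold 1 value per event and group and no column per replicate; for the same reason no replicate could be left out. With a ψ difference of at least 0.2, 4 member exons were called (1 lower, 3 higher). A Bayes factor of at least 100 left 3 higher exons, and so did a minimum of 50 informative reads. With reads divided by the noise factor, 0 exons passed Fisher's exact test. The median gene log2 ratio was 0.0216 with reads summed over all events and -0.0288 with median-of-ratios scaling, and 0 member genes were past 2-fold at a minimum of 100 reads. The matching share over all genes at that minimum was not counted. The median for reads of neither isoform was 0.0321 when summed over all events. The junction-corrected share of inclusion reads gave no difference for the USP39 exon (0.00) and -0.08 for that of BCAS2, both under the difference needed for a call, and -0.26 for the shorter PRPF39 poison exon, past it. The same estimator gave larger differences for DHX16 (-0.58), the ACIN1 exons of 120 nt (0.39) and 62 nt (0.33), the longer PRPF39 exon (-0.26), the 74 nt SF1 exon (0.13) and the 162 nt PRPF4B exon (0.72, where ψ differed by -0.01), and 0.00 for the 95 nt EFTUD2 exon and the 377 nt DDX23 exon. The cause of these changes was not tested, except where fewer exons or genes were tested by construction. The other alternatives run kept each count within 1.5 times. Low numbers of exclusion-only reads limit what the junction reads can show.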
